A study of Homo sapiens with 12 samples.

Results

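The mitosis genes described here are 37 genes of the kinases, cyclins, ubiquitin enzymes, kinetochores, motors and spindle proteins that carry a cell through division. They were chosen by name from a list of mitotic genes, with earlier results of these data known. All 37 were found among the 10945 gene rows of the deposited count table that carry a symbol. The cells were HepG2, an established human liver cancer line labelled wild type, a single line of tumour origin that divides in culture. All cells were seeded in EMEM (Eagle's minimum essential medium), and 24 h later they were moved to Plasmax, a medium formulated after the composition of human plasma, to the DMEM media labelled HGDMEM and LGDMEM or to fresh EMEM. Every medium contained 10% heat-inactivated fetal bovine serum, was renewed at 48 h, and was kept until harvest at 96 h. Each medium had 3 libraries of 3′ mRNA tags, 12 in all. The labels do not spell out the letters HG and LG or give the composition of the media, and the title of the study names iron availability and hepatocyte fate as its subject. Whether replicates were grown as independent cultures is not given in the labels, and the p-values therefore describe how these libraries vary, which could be technical variation alone.

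Most of these genes are silent in resting cells and are transcribed in waves late in the cell cycle. The DREAM complex, which holds E2F4, represses them outside the cycle, and MYBL2 and FOXM1 activate them as cells approach division, in large part through a promoter sequence called the cell cycle genes homology region (CHR element) and nearby CCAAT boxes bound by the factor NF-Y. CDK1 bound to cyclin A or B drives entry into mitosis, Aurora and Polo-like kinases build and correct the spindle, the kinetochore joins chromosomes to microtubules, and the anaphase-promoting complex then marks cyclins and securin for destruction so that the sister chromatids part. Normal hepatocytes rarely divide, whereas hepatoma lines such as HepG2 express this programme throughout culture.

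The deposited counts on rows with a symbol summed to between 3995365 and 5840057 per library, and the members had between 3 and 9104 counts in a library. Levels are given as CPM, counts scaled to a common library size by the TMM method. Because tags are counted at transcript ends they are compared between media for 1 gene at a time, not between genes. Plasmax libraries stood apart from the others on the first principal component of all genes. LGDMEM 3 stood apart from its own group on the second, at −51.8, where the other LGDMEM libraries were at 8.93 and −11.0, so counts and medians of gene lists against LGDMEM are given with and without it. Summed levels of 10 liver genes, all measured, ran from 15456 to 17026 CPM in Plasmax, 29404 to 32546 CPM in HGDMEM, 26900 to 30795 CPM in LGDMEM and 28116 to 28345 CPM in EMEM, and 7 of the 10 fell and 1 rose in Plasmax relative to EMEM. Among leukocyte markers 2 of 7 were measured, at summed levels of 3.79 to 19.3 CPM over the 12 libraries. Among endothelial and stromal markers 3 of 10 were measured, at summed levels of 69.4 to 94.9 CPM in Plasmax and 34.2 to 65.4 CPM in the other media. Most of this sum was ACTA2, at 57.6 to 83.5 CPM in Plasmax, and the 3 markers did not move together. Relative to EMEM ACTA2 rose in Plasmax (log2 fold change 0.81), PDGFRB fell (−1.59) and COL1A1 (0.78) was not called. PDGFRB also fell relative to LGDMEM (−1.74) and HGDMEM (−1.38), while ACTA2 rose relative to LGDMEM (1.14) and COL1A1 relative to HGDMEM (2.75). The leukocyte marker PTPRC and the endothelial markers PECAM1, CDH5 and VWF were not among the rows analysed. Transcripts encoded in mitochondria took 13.5 ± 1.00% of counts in Plasmax, 11.0 ± 0.843% in HGDMEM, 10.9 ± 1.25% in LGDMEM and 11.4 ± 1.11% in EMEM (SD, n = 3 each). The part of these differences in the results below was not tested.

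Nearly all mitosis genes had lower levels in Plasmax than in EMEM. These levels are relative to the other genes of a library and do not give the amount of mRNA per cell. Added over the 37 genes, the level was 1678, 1743 and 1438 CPM in the Plasmax libraries, against 4520, 3591 and 4418 CPM in the EMEM libraries. No Plasmax library came near the lowest EMEM library. The sum gives most weight to the abundant members, PLK1 above all, and does not describe each gene. Calls were made at a Benjamini-Hochberg adjusted p under 0.05 over all 10945 genes, using the quasi-likelihood test of edgeR. By it 32 of 37 members fell and 0 rose, where 22.1% of all genes were called, 12.1% as lower and 10% as higher. The median log2 fold change of the members was −1.41, beside 0.02 for all genes, and 30 of the 37 were more than 2-fold lower. In 34 members every Plasmax library lay below every EMEM library, as it did in 20.2% of all genes. In bulk RNA, fewer cells in division and less mRNA per dividing cell cannot be told apart. Of the 32 calls, 29 held in all 23 alternative fits. CENPE lost its call without EMEM 1, CENPF without Plasmax 2, and KIF23 without any one of Plasmax 1, 2 and 3 and EMEM 1 and 3.

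The same direction was seen against each DMEM medium. The summed level was 4526, 3996 and 4094 CPM in HGDMEM and 4299, 3670 and 2695 CPM in LGDMEM. Relative to HGDMEM 33 members fell in Plasmax and 0 rose, where 26.9% of all genes were called, 14.1% as lower and 12.8% as higher, and the median log2 fold change was −1.43. Relative to LGDMEM 29 fell and 0 rose, where 21.2% of all genes were called, 11.7% as lower and 9.48% as higher, and the median was −1.14. These 3 comparisons share the Plasmax libraries, so they are not separate tests of the same change. Against each of the 3 other media 29 members fell, as did 8.43% of all genes. In 26 members all 3 Plasmax libraries lay below all 9 others, which held for 11.3% of all genes. Taken 1 medium at a time, Plasmax and HGDMEM did not overlap in 34 members, with Plasmax below, as in 21.2% of all genes. A test over the 4 media together called 31 of 37 members, where 22.9% of all genes were called.

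**Figure D1:**
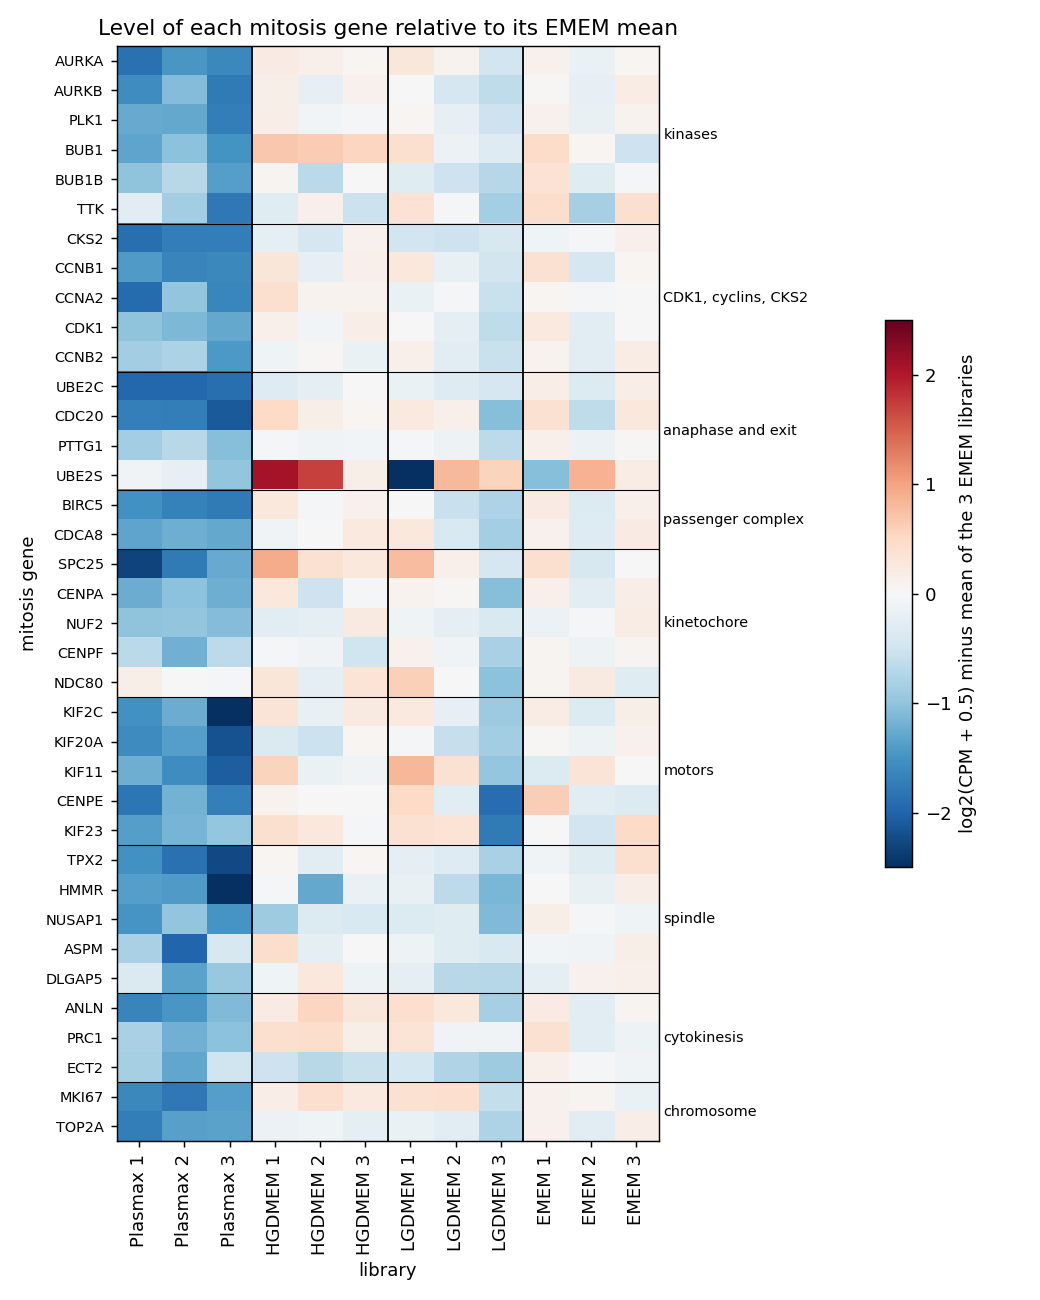
Each row is a mitosis gene, grouped by role, and each column a library. Colour gives log2(CPM + 0.5) minus the gene's mean over the 3 EMEM libraries, with blue for lower and red for higher. The Plasmax columns are blue for nearly all genes, NDC80 and UBE2S are the rows with little or uneven blue there, and LGDMEM 3 is bluer than LGDMEM 1 and 2.

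Because most of the members fell together, their promoters are shown, with RefSeq sequences of genome build GRCh38.p14 that span 250 bases before and 50 bases after the annotated transcription start. Of the 37 genes 32 had an entry, and UBE2C, BIRC5, TPX2, TTK and AURKA had none. The 110 bases directly before the start are printed for 6 genes that hold both elements searched for, each read 5′ to 3′ along the gene. They come from chr16:23678779-23678888 for PLK1, chr9:89311085-89311194 for CKS2, chr15:59105036-59105145 for CCNB2, chr1:43358871-43358980 for CDC20 and chr5:163460522-163460631 for HMMR, all on the plus strand, and from chr15:90994536-90994645 on the minus strand for PRC1. Capitals mark the CHR element, TTTGAA or its reverse complement TTCAAA, and the CCAAT box, CCAAT or ATTGG on the other strand. In HMMR a CCAAT and an ATTGG overlap, and a pair of CHR elements directly follow each other.
PLK1: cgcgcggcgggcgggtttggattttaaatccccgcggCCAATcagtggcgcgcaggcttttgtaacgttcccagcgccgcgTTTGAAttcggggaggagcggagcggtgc
CKS2: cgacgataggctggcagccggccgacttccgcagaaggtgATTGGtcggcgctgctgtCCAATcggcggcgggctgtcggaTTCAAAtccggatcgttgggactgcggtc
CCNB2: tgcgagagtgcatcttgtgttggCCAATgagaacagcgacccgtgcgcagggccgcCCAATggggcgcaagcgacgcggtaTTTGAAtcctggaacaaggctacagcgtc
CDC20: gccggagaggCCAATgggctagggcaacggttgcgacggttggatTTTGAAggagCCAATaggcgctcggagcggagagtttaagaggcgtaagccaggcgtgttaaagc
HMMR: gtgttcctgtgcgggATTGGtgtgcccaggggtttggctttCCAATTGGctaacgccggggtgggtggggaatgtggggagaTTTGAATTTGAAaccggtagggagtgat
PRC1: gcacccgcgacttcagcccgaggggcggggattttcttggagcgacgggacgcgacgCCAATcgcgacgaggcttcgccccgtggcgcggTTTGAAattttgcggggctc

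The 6 sequences were picked from the 19 members that hold both elements. In 5 of the 6 a CHR element lay nearer the start than every CCAAT box printed. In PLK1 a CCAAT box began at position −73 and a CHR element at −29, counted with −1 as the last base before the start. In CCNB2 CCAAT boxes began at −244, −120, −87 and −54 and a CHR element at −29, and CKS2 had its CHR element at −29 as well, on the opposite strand. PRC1 had a CCAAT box at −53 and a CHR element at −20. CDC20 departed from this order, with a CHR element at −65 between CCAAT boxes at −100 and −55, and another CHR element at −178. Among members not printed the order varied. It held in KIF11 (CCAAT box at −53, CHR element at −28) and CENPA, but not in CDK1, TOP2A and ASPM. There a CCAAT box at −150, −53 and −25 lay nearer the start than the nearest CHR element, at −161, −151 and −113. In MKI67 and CDCA8 a CHR element and a CCAAT box shared 1 base, and in PTTG1 CCAAT boxes on opposite strands overlapped.

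Over the 32 promoters a CHR element was found on either strand in 23 (71.9%), compared with 9.47% of the 8672 genes of the count table that had a promoter entry and 15.4% of all 27305 promoters of the same length. A CCAAT box was found in 26 (81.25%), compared with 37.0% of the genes in the table and 35.7% of all promoters. Both stood in 19 members (59.4%), compared with 4.08% and 6.08%. An E2F-type site, GGCGGGAA or its reverse complement TTCCCGCC, was found in 2 members, SPC25 and CENPA (6.25%), compared with 5.33% and 3.18%. A CHR element lying within positions −35 to −10 was found in 11 members (34.4%), compared with 0.773% of the genes in the table and 1.161% of all promoters. These 11 were PLK1, BUB1B, CKS2, CCNB2, CDCA8, CENPA, KIF11, HMMR, ANLN, PRC1 and MKI67. Matches are letters in a window and are not shown to be bound, and the members are well-known cell cycle genes of the kind in which these elements were first described.

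All 11 members with a CHR element in that window fell relative to EMEM, and their median was −1.41 on the log2 scale. Of the 23 with a CHR element anywhere, 20 fell, with a median of −1.28. Of the 7 with a CCAAT box and no CHR element, 6 fell, with a median of −1.46, and KIF2C and CENPE, with neither, had −1.71 and −1.66. Differences between these classes were not tested. Among genes that are no members, 798 had a CHR element anywhere in the promoter, of which 136 (17.0%) fell and 63 rose, and 335 had a CCAAT box as well, of which 20.0% fell. Those with a CHR element within the same window numbered 56, of which 22 (39.3%) fell and 5 rose, and these 56 include 8 of the further mitosis genes described below. Of the further mitosis genes, 29 had a CHR element anywhere in the promoter and 24 had a CCAAT box as well. Of 2851 other genes with a CCAAT box and no CHR element 14.3% fell, and of 4991 with neither element 9.86% fell.

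**Figure D2:**
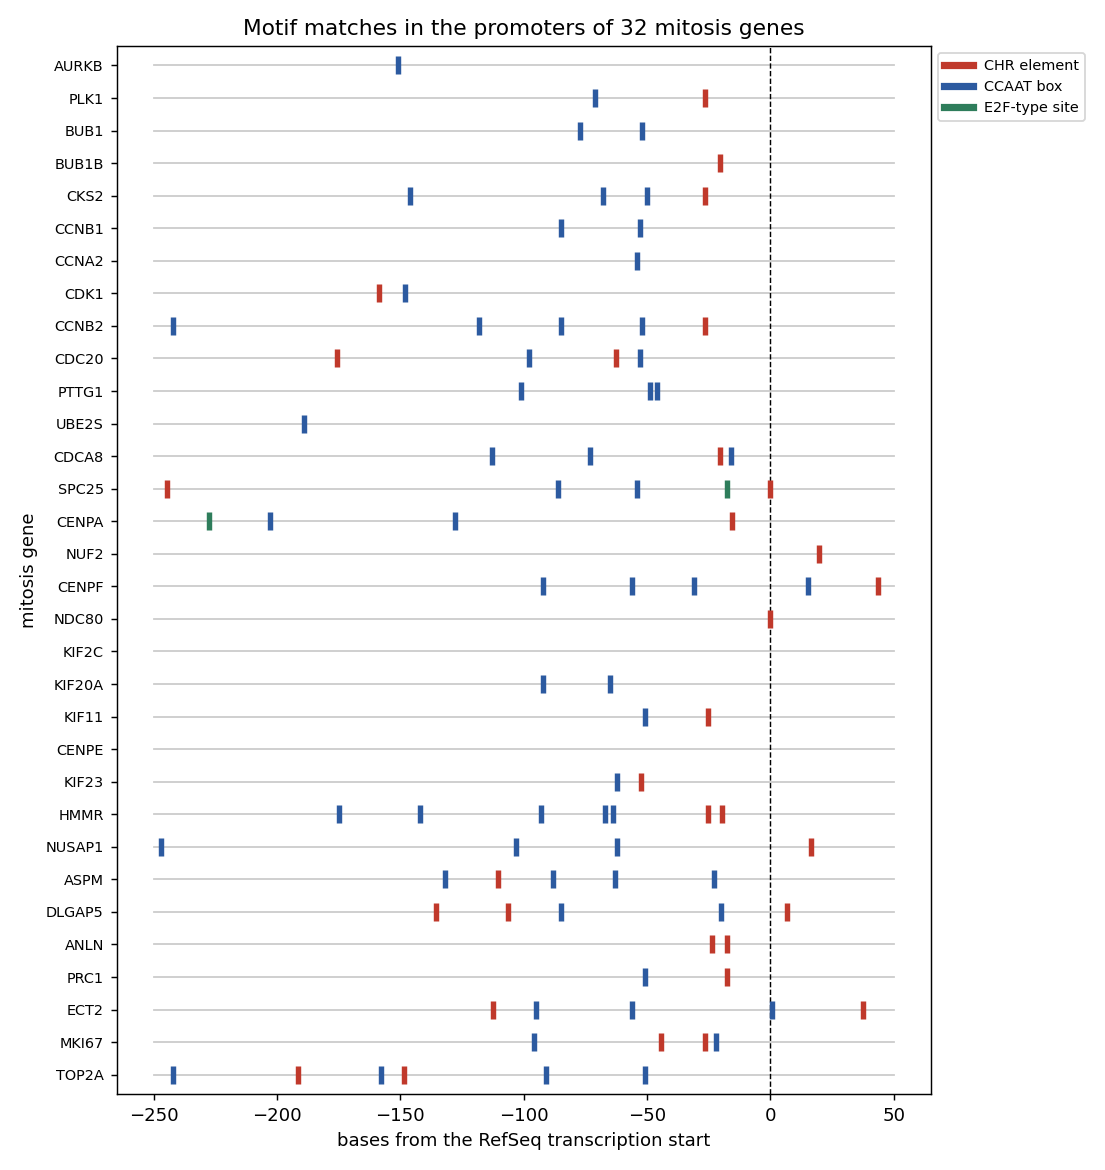
Each line is the promoter of 1 of the 32 mitosis genes with an entry, drawn by distance in bases from the RefSeq transcription start (dashed line at 0). Ticks mark the centres of CHR elements (red), CCAAT boxes (blue) and E2F-type sites (green), and most of the red ticks near the start lie just to its left, with blue ticks further upstream.

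Among the mitotic kinases 5 of 6 fell relative to EMEM, and the median of the 6 log2 fold changes was −1.40. PLK1, the Polo-like kinase of spindle assembly and mitotic entry, had 634, 628 and 459 CPM in Plasmax, against 1625, 1341 and 1606 CPM in EMEM. The groups did not overlap, and in HGDMEM (1707, 1447 and 1463 CPM) and LGDMEM (1562, 1320.0 and 1059.8 CPM) every library was also above every Plasmax library. Its log2 fold change was −1.41 against EMEM (SE 0.15, adjusted p = 2.87e-06), −1.20 against LGDMEM (adjusted p = 1.92e-05) and −1.42 against HGDMEM (adjusted p = 1.91e-06). AURKA, which matures centrosomes and spindle poles, averaged 83.8 ± 11.9 CPM in Plasmax and 261 ± 25.3 CPM in EMEM, a log2 fold change of −1.64. AURKB, the kinase of the chromosomal passenger complex, fell by 1.46. The checkpoint kinase BUB1 fell by 1.39. In HGDMEM it stood at 20.3, 19.7 and 18.4 CPM, above every library of LGDMEM (16.7, 11.2 and 9.96 CPM) and of EMEM (17.5, 13.0 and 8.62 CPM). HGDMEM lay above LGDMEM without overlap in 5.63% of all genes and above EMEM in 7.06%, and neither difference of BUB1 was called. BUB1B, the checkpoint protein BubR1, fell relative to EMEM (−1.03) and HGDMEM (−0.84, a call lost without any one of Plasmax 1 and 3 and HGDMEM 1 and 3), and had −0.50 against LGDMEM without passing. TTK (MPS1), which starts checkpoint signalling at kinetochores, passed in no comparison. It had 9.68, 6.26 and 3.10 CPM in Plasmax, against 16.3, 6.41 and 15.8 CPM in EMEM, and the groups overlapped. Without EMEM 2 it was called.

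CDK1 and its partners fell without exception, 5 of 5, in all 3 comparisons with Plasmax. CDK1, the kinase that drives entry into mitosis, had 47.0, 43.8 and 39.3 CPM in Plasmax, against 105, 91.5 and 107 CPM in HGDMEM, 96.2, 81.0 and 61.6 CPM in LGDMEM and 114, 79.7 and 95.9 CPM in EMEM. The Plasmax libraries lay close together and below all others. Its log2 fold change against EMEM was −1.15 (SE 0.17, adjusted p = 0.000129). CKS2, a small subunit that binds CDK1, had 7.00, 7.77 and 7.85 CPM in Plasmax, against 25.2, 26.5 and 29.7 CPM in EMEM. The groups were far apart relative to their spread, and the log2 fold change was −1.84 (SE 0.22, adjusted p = 1.28e-05). The cyclins CCNB1, CCNA2 and CCNB2 fell by 1.61, 1.47 and 1.03. CCNA2 had 21.8, 42.5 and 26.9 CPM in Plasmax, below every other library. Among the other media it had 112, 90.2 and 89.5 CPM in HGDMEM, all of them above those of LGDMEM (74.7, 82.4 and 57.5 CPM) and of EMEM (86.9, 82.6 and 83.9 CPM). Such an order without overlap held against LGDMEM in 5.63% of all genes and against EMEM in 7.06%, and neither difference of CCNA2 was called.

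Of the 4 genes of anaphase and mitotic exit 3 fell relative to EMEM. UBE2C, the ubiquitin-conjugating enzyme that starts chains for the anaphase-promoting complex, had 24.7, 24.6 and 26.0 CPM in Plasmax, against 109.95, 76.7 and 110.23 CPM in EMEM. It had the most negative log2 fold change of the members in that comparison, −1.97 (SE 0.17, adjusted p = 2.05e-07), and the Plasmax libraries differed from each other by less than 2 CPM. In HGDMEM it had 77.6, 82.3 and 96.4 CPM and in LGDMEM 87.1, 78.2 and 72.9 CPM, again with no overlap with Plasmax. CDC20, the activator of the complex in metaphase, had 45.7, 44.9 and 34.5 CPM in Plasmax, against 194, 96.8 and 179 CPM in EMEM, a log2 fold change of −1.90 (SE 0.29, adjusted p = 0.000126). Outside Plasmax it varied widely, with the low values in EMEM 2 and in LGDMEM 3 (179, 164 and 71.3 CPM in LGDMEM). PTTG1, securin, had 213, 239 and 186 CPM in Plasmax, against 427, 351 and 395 CPM in EMEM. It fell by 0.88 (SE 0.15, adjusted p = 0.000377), and although its groups did not overlap, its interval of −1.19 to −0.57 lay above the members' median. PTTG1 has near-identical copies elsewhere in the genome, and reads may be divided among them.

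UBE2S, which lengthens the chains that UBE2C starts, was measured with little precision. It had 6.18, 5.69 and 3.10 CPM in Plasmax, 29.6, 22.8 and 7.40 CPM in HGDMEM, 0.757, 12.0 and 9.96 CPM in LGDMEM and 2.91, 12.5 and 7.57 CPM in EMEM. The values scattered more than 10-fold within LGDMEM, where the lowest rested on 3 counts. Its log2 fold change was −0.64 against EMEM (95% interval −2.002 to 0.73) and did not pass, and −1.998 against HGDMEM (adjusted p = 0.0256), a call that ended in 8 of 23 alternative fits, among them those without any one of Plasmax 1, 2 and 3 and HGDMEM 1 and 2. The gene has processed pseudogenes, so its counts are less certain.

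BIRC5 and CDCA8, which join AURKB in the chromosomal passenger complex that corrects faulty attachments and guides cytokinesis, fell in all 3 comparisons with Plasmax. BIRC5, survivin, had 48.4, 42.8 and 40.5 CPM in Plasmax, against 166, 135 and 149 CPM in HGDMEM, 139, 94.6 and 81.3 CPM in LGDMEM and 161, 109 and 152 CPM in EMEM. All 9 other libraries lay above the Plasmax ones, and the log2 fold change against EMEM was −1.67 (SE 0.19, adjusted p = 6.57e-06). CDCA8, borealin, had 18.7, 20.1 and 19.2 CPM in Plasmax, against 50.7, 37.9 and 54.9 CPM in EMEM, and fell by 1.30.

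Of the 5 kinetochore genes 4 fell relative to EMEM. The NDC80 complex grips microtubule ends and is built from NDC80, NUF2, SPC24 and SPC25, of which 3 are members. NDC80 had 22.2, 19.7 and 19.4 CPM in Plasmax, against 24.8, 17.0 and 25.4 CPM in HGDMEM, 30.5, 19.9 and 9.51 CPM in LGDMEM and 21.1, 23.3 and 16.2 CPM in EMEM. Plasmax lay inside the range of every other medium, and the log2 fold change against EMEM was 0.02 with a 95% interval of −0.63 to 0.66, which lies above the members' median of −1.41. Its direction turned to −0.05 without Plasmax 1 and −0.12 without EMEM 3. NUF2, with 22.7, 23.1 and 21.7 CPM in Plasmax and 42.0, 44.7 and 52.8 CPM in EMEM, fell by 1.05 (SE 0.19, adjusted p = 0.000564). SPC25 had 4.53, 6.82 and 9.92 CPM in Plasmax, against 46.9, 32.3 and 29.6 CPM in HGDMEM, 42.4, 26.7 and 18.3 CPM in LGDMEM and 32.8, 18.5 and 24.4 CPM in EMEM. Its log2 fold changes of −1.82 against EMEM, −2.03 against LGDMEM and −2.35 against HGDMEM did not overlap in interval with those of NDC80, although the difference between the genes was not tested. CENPA, the histone variant that marks centromeres, fell relative to EMEM (−1.18) and HGDMEM (−1.10), and relative to LGDMEM (−0.94) in a call lost without any one of Plasmax 1 and 3 and LGDMEM 1 and 2.

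CENPF, a large kinetochore and nuclear matrix protein of the late cell cycle, had 46.3, 32.2 and 46.9 CPM in Plasmax, against 72.8, 70.3 and 52.9 CPM in HGDMEM, 80.8, 69.8 and 42.3 CPM in LGDMEM and 77.9, 68.5 and 77.8 CPM in EMEM. Plasmax lay below HGDMEM and EMEM but overlapped LGDMEM 3. It fell by 0.84 relative to EMEM (SE 0.21, adjusted p = 0.00828), a call lost without Plasmax 2. The falls relative to LGDMEM (−0.62, adjusted p = 0.0452) and HGDMEM (−0.65, adjusted p = 0.0305) were less firm. They were lost in 16 and 4 of the 23 alternative fits, the first without any one library other than HGDMEM 3 and LGDMEM 3 and the second without Plasmax 2, HGDMEM 1 or HGDMEM 2.

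The motors all fell relative to EMEM, 5 of 5, and their median log2 fold change was −1.69. KIF20A, the kinesin MKLP2 that carries the passenger complex to the central spindle, had 17.5, 20.3 and 11.4 CPM in Plasmax, against 41.4, 36.4 and 55.4 CPM in HGDMEM, 51.5, 35.6 and 29.2 CPM in LGDMEM and 54.4, 48.6 and 57.6 CPM in EMEM. No library of another medium reached down to the Plasmax values, and the log2 fold change against EMEM was −1.70 (SE 0.24, adjusted p = 7.7e-05). KIF2C (MCAK), which dismantles microtubules at faulty attachments, fell by 1.71, and KIF11 (Eg5), which pushes spindle poles apart, fell by 1.69 from few counts. CENPE, the motor that brings chromosomes to the spindle equator, fell by 1.66 relative to EMEM. Its LGDMEM values of 28.5, 16.5 and 4.98 CPM reached down to those of Plasmax (5.36, 8.53 and 5.79 CPM), and its call there ended without any one of Plasmax 1 and 3 and LGDMEM 1 and 2. KIF23 (MKLP1), of the central spindle, had 5.15, 6.07 and 7.03 CPM in Plasmax, against 14.1, 10.1 and 20.2 CPM in EMEM. It fell by 1.28 (adjusted p = 0.0399), with the call as fragile as given above, and by 1.45 relative to HGDMEM, a call lost without Plasmax 1, Plasmax 2 or HGDMEM 1. Against LGDMEM it had −1.15 without passing, and passed without LGDMEM 3, where it had 3.85 CPM beside 18.7 and 18.1 CPM in the other LGDMEM libraries.

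Of the 5 spindle genes 3 fell relative to EMEM. TPX2, which activates AURKA and seeds spindle microtubules, had 45.7, 35.6 and 27.1 CPM in Plasmax, against 135, 109 and 135 CPM in HGDMEM, 111, 104 and 73.8 CPM in LGDMEM and 122, 105 and 173 CPM in EMEM. Plasmax lay below all others, and the log2 fold change against EMEM was −1.88 (SE 0.21, adjusted p = 6.52e-06). HMMR, a spindle pole protein that also binds hyaluronan, had 7.21, 7.01 and 2.89 CPM in Plasmax, against 19.9, 17.3 and 22.1 CPM in EMEM, and fell by 1.78. Its call against LGDMEM (adjusted p = 0.0436) held in 3 of 12 fits that left out 1 library, those without HGDMEM 1, HGDMEM 2 or LGDMEM 3, and that against HGDMEM was lost without Plasmax 3, HGDMEM 1 or HGDMEM 3. NUSAP1, which bundles microtubules around chromosomes, fell by 1.31 relative to EMEM. Its smaller falls relative to LGDMEM (−0.76) and HGDMEM (−0.78) were lost without Plasmax 1 or 3, and the first also without LGDMEM 1 or 2 and the second without HGDMEM 2 or 3. DLGAP5 (HURP) and ASPM, of spindle fibres and poles, had every Plasmax library below every EMEM library and log2 fold changes of −0.90 and −0.99, but their adjusted p of 0.0922 and 0.0614 did not pass. Leaving out Plasmax 1 called DLGAP5 relative to EMEM and HGDMEM, and leaving out Plasmax 3 called ASPM relative to EMEM. ASPM fell relative to HGDMEM (−1.09, adjusted p = 0.0335), a call lost without any one of Plasmax 1 and 2 and HGDMEM 1 and 3. Both had few counts, 71 and 89 over the 3 Plasmax libraries.

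For cytokinesis, all 3 members fell relative to EMEM. PRC1, which crosslinks the central spindle, had 36.5, 27.9 and 31.6 CPM in Plasmax, against 85.5, 88.2 and 71.5 CPM in HGDMEM, 82.5, 60.7 and 60.4 CPM in LGDMEM and 84.2, 54.1 and 59.3 CPM in EMEM, with no overlap between Plasmax and the rest. Its log2 fold change was −1.04 (SE 0.19, adjusted p = 0.000766) against EMEM and −1.36 against HGDMEM. ANLN (anillin), a scaffold of the contractile ring, had 16.7, 19.1 and 24.8 CPM in Plasmax and 61.9, 44.1 and 56.4 CPM in EMEM, and fell by 1.42. ECT2, the exchange factor that switches on RhoA at the cell equator, had a pattern of its own. It had 21.8, 15.7 and 27.7 CPM in Plasmax, 27.2, 24.2 and 26.6 CPM in HGDMEM, 28.8, 23.2 and 21.1 CPM in LGDMEM and 43.0, 38.6 and 36.8 CPM in EMEM. EMEM stood above all libraries of the other media, which overlapped each other. LGDMEM lay below EMEM without overlap in 6.3% of all genes and HGDMEM in 7.93%, and ECT2 was called in neither of these comparisons. ECT2 fell by 0.86 in Plasmax relative to EMEM (SE 0.21, adjusted p = 0.00671), while its log2 fold change was −0.16 against LGDMEM (95% interval −0.61 to 0.29) and −0.26 against HGDMEM (−0.70 to 0.19). The value against LGDMEM turned to 0.03 without Plasmax 2.

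The chromosome genes TOP2A and MKI67 fell in all 3 comparisons with Plasmax. TOP2A, the topoisomerase that untangles sister chromatids, had 76.6, 98.4 and 99.8 CPM in Plasmax, against 227, 235 and 216 CPM in HGDMEM, 225, 211 and 149 CPM in LGDMEM and 274, 210.2 and 283 CPM in EMEM. The Plasmax values were all under 100 CPM and the others all above it, and the log2 fold change against EMEM was −1.48 (SE 0.16, adjusted p = 4.54e-06). MKI67, the source of the Ki-67 antigen used in pathology to mark dividing cells, had 15.2, 13.5 and 18.2 CPM in Plasmax, against 53.5, 64.1 and 56.5 CPM in HGDMEM, 62.3, 64.3 and 31.2 CPM in LGDMEM and 51.2, 50.02 and 42.5 CPM in EMEM. Here too no library of another medium reached the Plasmax range, and the falls were 1.62, 1.75 and 1.89 relative to EMEM, LGDMEM and HGDMEM.

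**Figure D3:**
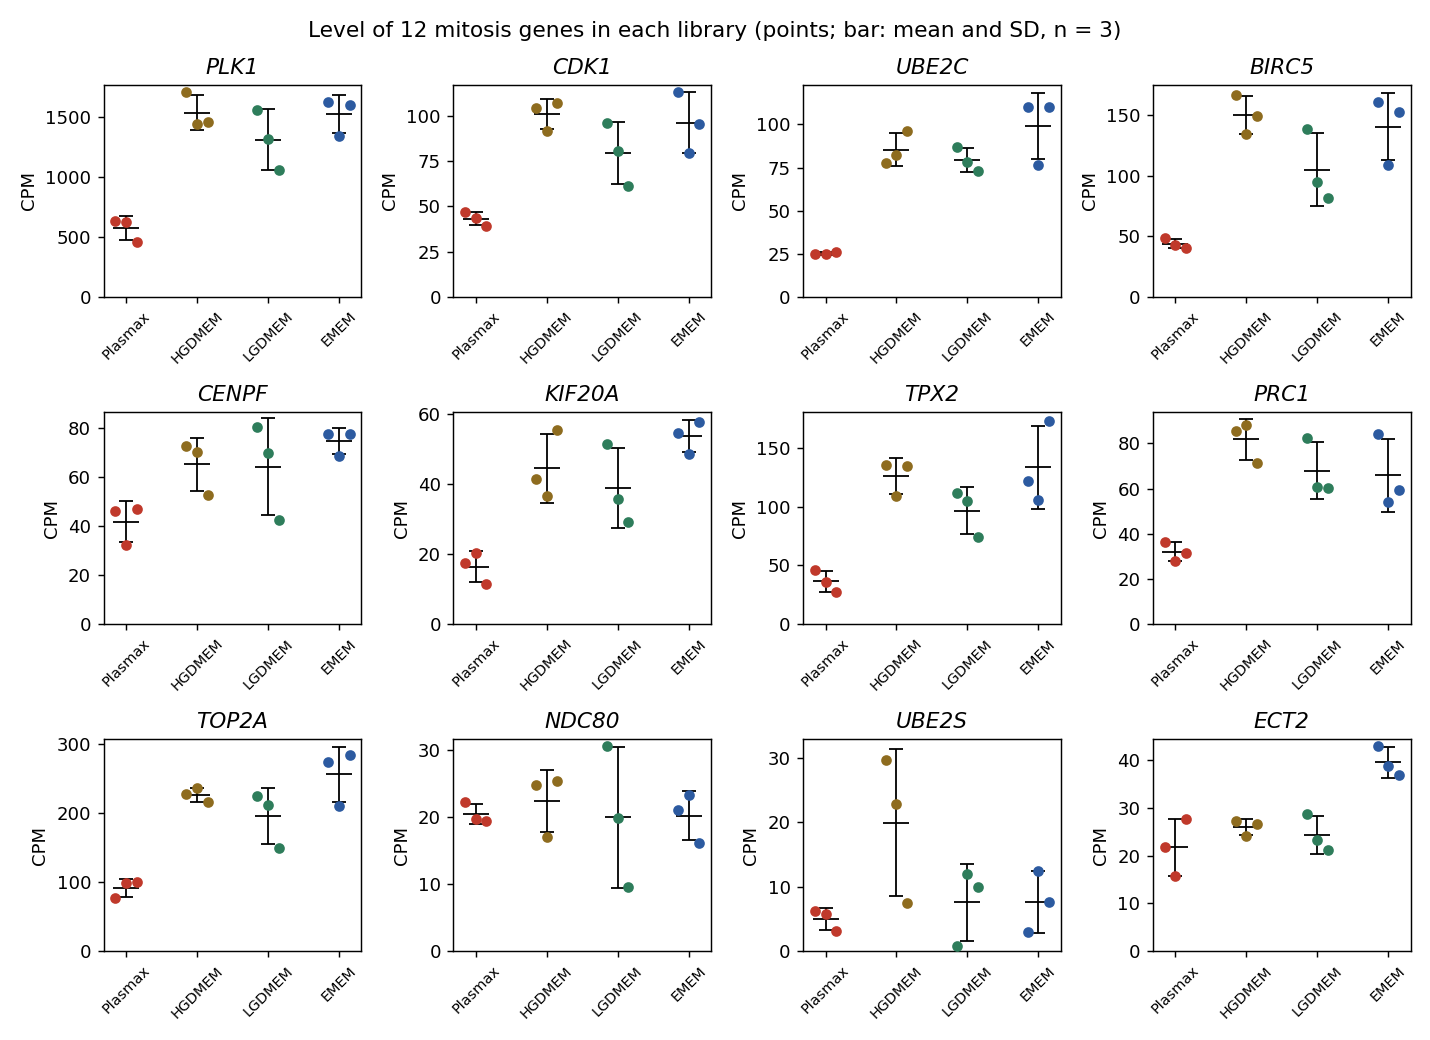
CPM of 12 mitosis genes in each library, with a panel per gene, a point per library and a bar for the mean and SD of the 3 libraries of a medium. In 8 panels, including PLK1, UBE2C and TOP2A, the Plasmax points lie below all others. In CENPF they meet LGDMEM 3, and the NDC80, UBE2S and ECT2 panels show the departures from that pattern.

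The 95% interval of a member's log2 fold change held the members' median for 31 of 37 relative to EMEM, 27 of 37 relative to LGDMEM and 27 of 37 relative to HGDMEM, and whether the members differed from each other was not tested. Relative to EMEM the interval lay below the median for 2 members and above it for 4. The log2 fold changes ran from −1.97 to 0.02 relative to EMEM, −2.03 to 0.04 relative to LGDMEM and −2.35 to −0.13 relative to HGDMEM. By role, the medians relative to EMEM ran from −1.69 for the motors and −1.55 for the chromosome genes to −1.05 for the kinetochore and −1.04 for the cytokinesis genes, and differences between roles were not tested.

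**Figure D4:**
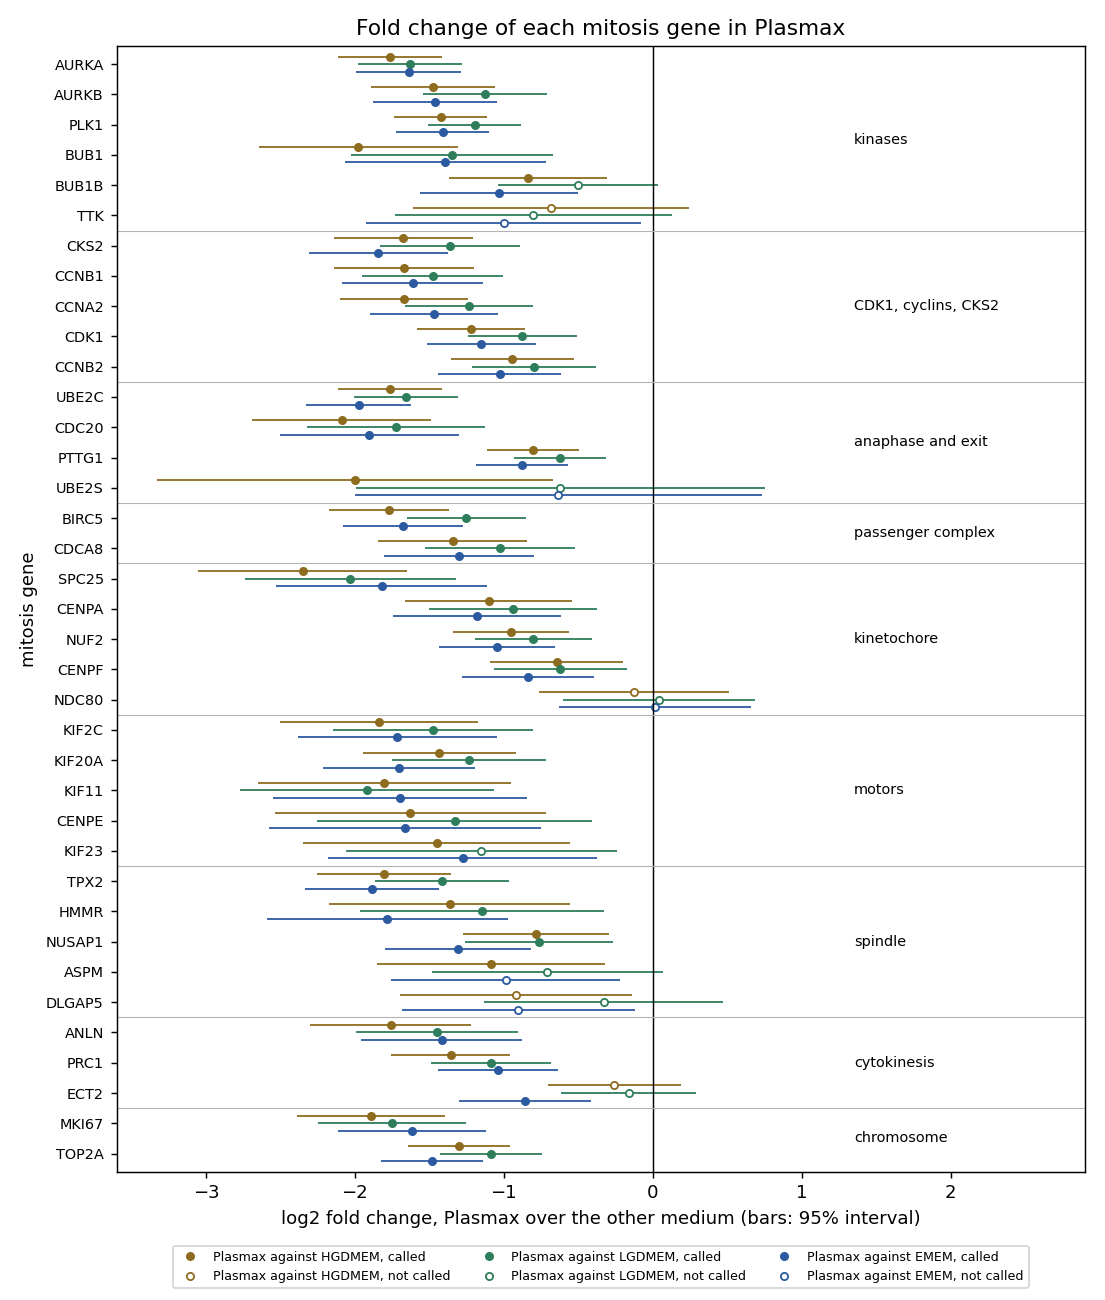
log2 fold change of each mitosis gene in Plasmax over HGDMEM (brown), LGDMEM (green) and EMEM (blue), with 95% intervals as bars, filled points for genes called at an adjusted p under 0.05 and open points for the rest. Nearly all points lie left of 0, and all 3 points are open for NDC80, TTK and DLGAP5.

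Between the other media no member was called. HGDMEM against LGDMEM gave 0 of 37 by edgeR's quasi-likelihood test, where 0.064% of all genes were called, and 0 by DESeq2 and limma voom. At an unadjusted p under 0.05 there were 4 members (BUB1, CCNA2, UBE2S and BIRC5), beside 7.86% of all genes, but 12 without LGDMEM 1 and 1 without HGDMEM 1 or LGDMEM 3. LGDMEM against EMEM gave 0, where 0.0731% of all genes were called. There 7 members (BUB1B, CKS2, BIRC5, TPX2, NUSAP1, ECT2 and TOP2A) had an unadjusted p under 0.05, beside 7.91% of all genes, but 16 without LGDMEM 1, 4 without LGDMEM 2, 3 without LGDMEM 3 or EMEM 1 and 2 without EMEM 3. HGDMEM against EMEM gave 0, where 0.164% of all genes were called, with 3 (UBE2S, NUSAP1 and ECT2) at an unadjusted p under 0.05, beside 7.58% of all genes, and 1 without HGDMEM 1. DESeq2 and limma voom called 0 in both of these comparisons too. The shares of all genes at an unadjusted p are those of the fit to all 12 libraries. They were not taken for the fits without a library, so the counts of members there have no share to be read against. At the adjusted threshold the share of all genes called without LGDMEM 1 was 1.08% in HGDMEM against LGDMEM and 0.795% in LGDMEM against EMEM. Both were above the 0.064% and 0.0731% with all libraries. The member furthest from 0 was UBE2S in HGDMEM against LGDMEM (1.38, SE 0.61, adjusted p = 0.603) and in HGDMEM against EMEM (1.36, SE 0.61, adjusted p = 0.607), and ECT2 in LGDMEM against EMEM (−0.70, SE 0.21, adjusted p = 0.304). By mean level, Plasmax was lowest for 36 of 37 members and LGDMEM for NDC80. The orders EMEM, HGDMEM, LGDMEM, Plasmax and HGDMEM, EMEM, LGDMEM, Plasmax, from high to low, held for 15 members each, and no member was called between the first 3 media of these orders.

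The distance of LGDMEM from HGDMEM and EMEM was smaller without LGDMEM 3. The members' median log2 difference from the EMEM mean was 0.04, −0.21 and −0.73 in the LGDMEM libraries, beside −1.40, −1.24 and −1.44 in Plasmax, 0.16, −0.08 and 0.05 in HGDMEM and 0.11, −0.21 and 0.11 in EMEM itself. LGDMEM 3 was the lowest LGDMEM library for 35 of 37 members, as it was for 36.1% of all genes, and EMEM 2 was the lowest EMEM library for 26, as for 33.9% of all genes. The median difference of LGDMEM 3 from the mean of LGDMEM 1 and 2 was −0.55 for the members and −0.91 for DNA replication genes, beside 0.19 for liver genes and 0.01 for all genes. With all libraries, 35 members had a higher mean in HGDMEM than in LGDMEM, at a median log2 fold change of 0.27, as had 49.8% of all genes, and 32 had a lower one in LGDMEM than in EMEM, with a median of −0.24, as had 50.1% of all genes. Without LGDMEM 3 these medians were 0.06 and −0.08, and the counts were 27 and 21, beside 50.3% and 49.9% of all genes. Also without it, 30 members fell in Plasmax relative to LGDMEM, where 20.7% of all genes were called, and the members' median was −1.33. In 33 members all Plasmax libraries lay below LGDMEM 1 and 2, as in 24.1% of all genes. With LGDMEM 3, 26 members had no overlap between Plasmax and LGDMEM, as had 18% of all genes. Without LGDMEM 1, BIRC5 was called in HGDMEM against LGDMEM, at 0.77 (SE 0.17, adjusted p = 0.0344), where 1.08% of all genes were called.

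**Figure D5:**
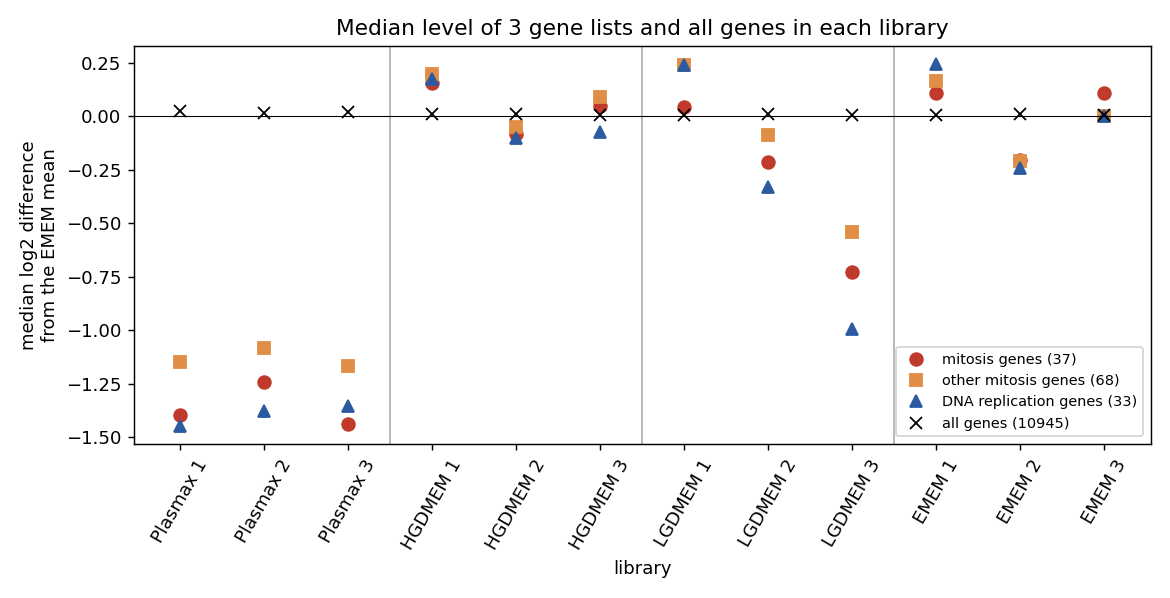
Median, in each library, of the log2 CPM difference from the EMEM mean, for the 37 mitosis genes (circles), 68 other mitosis genes (squares), 33 DNA replication genes (triangles) and all 10945 genes (crosses). The Plasmax libraries sit between −1.08 and −1.45 for the 3 lists, LGDMEM 3 between −0.54 and −0.996, and all genes at 0.00 to 0.02.

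Other genes of division moved with the members to differing degrees. They were taken from lists chosen for their role, with earlier results of these data known. Of 68 further mitosis genes 47 fell in Plasmax relative to EMEM, 44 relative to LGDMEM and 51 relative to HGDMEM, and 0 rose, with medians of −1.22, −1.13 and −1.26. Of all genes, 22.1%, 21.2% and 26.9% were called in these comparisons. Without LGDMEM 3, 50 fell relative to LGDMEM, with a median of −1.37, where 20.7% of all genes were called. The most negative called values relative to EMEM were those of ESPL1 (separase, the protease that cuts cohesin, −2.37), FAM83D (a spindle protein, −2.27), PIMREG (−2.07) and ZWINT (a kinetochore linker, −2.01). FAM83D had 14.6, 13.1 and 13.6 CPM in Plasmax, against 70.4, 57.5 and 72.6 CPM in EMEM, with no overlap. Of 33 measured DNA replication genes 28, 23 and 27 fell relative to EMEM, LGDMEM and HGDMEM, and 0 rose, with medians of −1.35, −1.14 and −1.38. Without LGDMEM 3, 28 fell relative to LGDMEM, with a median of −1.40, beside the same 20.7% of all genes. They were led by POLE2 (a polymerase epsilon subunit, −3.004, from 12 counts over the Plasmax libraries), CDT1 (which licenses origins, −2.61), TK1 (thymidine kinase, −2.43) and CDC6 (a loader of the replicative helicase, −2.11). These genes are active earlier in the cycle, and the CHR element was found in 1 of their 29 promoters (3.45%) and an E2F-type site in 10 (34.5%), compared with 52.7% and 9.09% of the promoters of the further mitosis genes.

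The genes of the anaphase-promoting complex itself are set beside the 22.1%, 21.2% and 26.9% of all genes called relative to EMEM, LGDMEM and HGDMEM. Of 15 measured subunits and regulators 3 fell and 1 rose relative to EMEM, 1 fell and 1 rose relative to LGDMEM, and 2 fell and 1 rose relative to HGDMEM, with medians of 0.01, −0.06 and −0.18. Without LGDMEM 3, 3 fell and 1 rose relative to LGDMEM, with a median of −0.12, where 20.7% of all genes were called. The called genes relative to EMEM were the inhibitor FBXO5 (EMI1, −1.50), ANAPC15 (−1.14) and ANAPC11 (the RING subunit, −0.64), which fell, and ANAPC16 (0.57), which rose. ANAPC16 had 81.8, 90.6 and 75.9 CPM in Plasmax, against 54.4, 57.5 and 55.5 CPM in EMEM. Of 18 condensin and cohesin genes, which shape and hold chromatids, 8 fell and 1 rose relative to EMEM, with a median of −0.73, and 7 fell and 0 rose relative to each DMEM medium (6 and 0 relative to LGDMEM without LGDMEM 3). CDCA5 (sororin, −1.91) and the condensin subunits NCAPG (−1.70), NCAPH (−1.52) and NCAPG2 (−1.32) were the most negative. Of 14 measured controllers of mitotic entry 7 fell and 1 rose relative to EMEM, 6 and 1 relative to LGDMEM (7 and 1 without LGDMEM 3), and 9 and 1 relative to HGDMEM. They were led by GMNN (geminin, which blocks relicensing, −1.70), the phosphatases CDC25A (−1.44) and CDC25C (−1.17) and CCNF (cyclin F, −1.36).

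Of 20 measured transcription factors and partners that act on these promoters, 7 fell and 1 rose relative to EMEM. Relative to LGDMEM 5 fell and 0 rose (6 and 0 without LGDMEM 3), and relative to HGDMEM 8 fell and 0 rose. The medians relative to EMEM, LGDMEM and HGDMEM were −0.46, −0.56 and −0.62. Of all genes, 22.1%, 21.2% and 26.9% were called in these comparisons, and 20.7% relative to LGDMEM without LGDMEM 3. MYBL2, the Myb protein that turns the complex on these promoters into an activator, had 32.5, 30.5 and 42.0 CPM in Plasmax, against 129.9, 92.6 and 111 CPM in EMEM. The groups did not overlap, and it fell by 1.67 (SE 0.20, adjusted p = 1.06e-05). FOXM1, which joins it in the late cycle, had 9.89, 10.8 and 14.7 CPM in Plasmax, against 25.2, 28.8 and 28.0 CPM in EMEM, and fell by 1.21 (SE 0.24, adjusted p = 0.0014). E2F4, the repressor subunit, had 93.7, 94.8 and 80.8 CPM in Plasmax, against 82.0, 74.6 and 76.8 CPM in EMEM. Its groups overlapped, and its log2 fold change of 0.21 (95% interval −0.06 to 0.48, adjusted p = 0.27) did not pass, nor did it relative to LGDMEM or HGDMEM. The activators E2F2, E2F1 and their partner TFDP1 fell by 1.85, 1.38 and 1.30 relative to EMEM.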

How the data were processed

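HepG2 cells in 4 media were measured by QuantSeq 3′ sequencing, with 3 libraries per medium grouped by the labels. Per the submitters' processing notes, the build was hg19/GRCh37; the same notes list limma 3.40.6, featureCounts 1.6.3, STAR 2.7.5b, cutadapt 1.16 and FastQC 0.72, and do not say what each was used for. The values are gene counts, whole numbers that the authors deposited for 11546 rows, with totals of 4131093 to 6015796 counts per library. At least 3 libraries of every row reached 2.51 CPM, so rows with low counts are not in the table, by a criterion not given, and these totals are not the full depth. The 601 rows without a symbol, 2.92% to 3.71% of counts, were left out.

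From the deposited counts, 6 comparisons of media and a test over the 4 media were made in R 4.3.3 on all 12 libraries by the quasi-likelihood test of edgeR 4.0.16, with TMM scaling, no block and Benjamini-Hochberg adjustment at 0.05 over 10945 genes. The low-count filter removed 0 genes. The variation between libraries of a medium beyond counting noise was estimated at 0.215 (common coefficient), on 8 residual degrees of freedom and 10.4 from the prior. SE was derived from the log2 fold change and its F statistic, and intervals are at 95%. Log2 CPM used a prior count of 2. Replicates of a medium were not duplicates, since their counts differed by 7.15 to 22.5 chi-square units per degree of freedom. Alternatives were other scalings and filters, DESeq2 1.42.0, limma voom 3.58.1, a replicate block, a stricter threshold, fits to the 2 media alone and leaving out each library.

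The members and lists were chosen with earlier results of these data known. Values in every library are given for the member of each role with the highest mean CPM, the 4 most negative and 4 least negative log2 fold changes in Plasmax relative to EMEM, and the member furthest from 0 in each comparison among the other media. Up to 4 called genes of each further list and FOXM1, MYBL2 and E2F4 are named, and any other gene or value was chosen after its values were seen. Promoters are from RefSeq, GRCh38.p14, and were used for sequence alone, since the counts are of another build.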

Additional observations from a re-analysis of the deposited data

How the results depend on the processing

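In all 23 alternative fits the members' counts relative to EMEM, LGDMEM and HGDMEM stayed within 30 to 33, 24 to 30 and 26 to 33, with 0 rising. The share of all genes called ran from 11.8% to 25.1%, 11.5% to 24.1% and 15.6% to 30.4%, lowest at the stricter threshold. The members' count over the 4 media stayed within 25 to 32, and the share of all genes there was not taken for these fits. Leaving out 1 library gave 30 to 33, 24 to 30 and 27 to 33 members, and 25 to 32 over the 4 media. The share of all genes then ran from 15.5% to 24.3%, 15.2% to 20.8% and 20.6% to 28.9% relative to EMEM, LGDMEM and HGDMEM. The count in HGDMEM against LGDMEM ran from 0 to 1. The 1 was BIRC5 without LGDMEM 1, where 1.08% of all genes were called. The counts of LGDMEM and of HGDMEM against EMEM were 0 throughout. The median relative to HGDMEM lay within −1.57 to −1.37, with −1.57 without HGDMEM 2, and those relative to EMEM and LGDMEM within −1.50 to −1.31 and −1.33 to −0.92. Over all members, 29 of 32 calls relative to EMEM, 24 of 29 relative to LGDMEM and 26 of 33 relative to HGDMEM held in every alternative fit. The 15 members chosen by rule were picked by level and fold change in these data, so they do not stand for all members. Of their 1035 values in comparisons with Plasmax, 1001 kept direction and call, 29 lost their call and 5 changed sign. The 5 were NDC80 relative to EMEM (−0.05 without Plasmax 1, −0.12 without EMEM 3, range −0.12 to 0.14 when 1 library was left out) and to LGDMEM (−0.02 without Plasmax 1, −0.30 without LGDMEM 3, range −0.30 to 0.47) and ECT2 relative to LGDMEM (0.027 without Plasmax 2, range −0.37 to 0.027), none of them called. Why single calls were lost was not tested. Media share replicate numbers, but libraries of the same number did not deviate together by over 0.1 for all 3 numbers in any comparison over all genes. Among the 4366 genes whose mean log2 CPM exceeded 5 they did in HGDMEM against LGDMEM (correlations 0.246, 0.165 and 0.210) and in HGDMEM against EMEM (0.186, 0.110 and 0.124). Over all genes, each of the 6 libraries in HGDMEM against LGDMEM and in HGDMEM against EMEM correlated best with its own number. So did 3 of 6 in LGDMEM against EMEM, 2 of 6 in Plasmax against HGDMEM and 0 of 6 in Plasmax against EMEM and against LGDMEM. With the replicate block 33, 29 and 33 members fell in Plasmax relative to EMEM, LGDMEM and HGDMEM, where 23.1%, 22.1% and 27.8% of all genes were called. In that fit 31 members were called over the 4 media, and 0 were called among the other media. Relative to EMEM, the intervals of UBE2S and TTK, which had few counts, held a log2 fold change of −1 as well as values near 0.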
